A study of Rattus norvegicus with 12 samples.

Results

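The genes described here are 4 metallothionein genes (Mt1, Mt1f, Mt2A and Mt3), the plasma membrane zinc exporter gene Slc30a1 and Mtf1, which encodes the metal-responsive transcription factor MTF1. The 6 symbols were selected on the log2 values of these same arrays, as a list drawn up with the results of the 5 comparisons known. For each symbol the table row paired with that gene alone was used, and where there were several, the row with the highest mean. All 6 had such a row, out of 18166 genes. Because the list was made with the values known, the adjusted p given below for these genes describe these arrays and support nothing beyond them.

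Metallothioneins are small, cysteine-rich proteins that bind zinc and copper and buffer them inside the cell. In mammals MTF1 binds zinc when the metal is in excess and then acts at short DNA elements, the metal response elements. These lie upstream of several metallothionein genes and of Slc30a1, whose product (ZnT1) carries zinc out of the cytosol. In brain, Mt1 and Mt2 genes are well known in astrocytes, while Mt3, also called growth inhibitory factor, is found in neurons and astrocytes. Metallothionein genes also respond to glucocorticoids, cytokines and oxidative stress.

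Cells were primary astrocytes grown from the cerebral cortex of Sprague-Dawley rats aged 1 day, and serum was withheld for 2 days to remove microglia and meningeal cells. The 12 arrays fell into 4 groups of 3, numbered 1 to 3 in their titles. They were siSHP_IFNg_GW (SHP siRNA, interferon-γ and a compound labelled GW), siCon_IFNg_GW (control siRNA, interferon-γ and GW), siCon_IFNg (control siRNA and interferon-γ) and siCon (control siRNA with neither agent). All groups were transfected with an siRNA, treatment lasted 3 h, and the target and dose of GW are not given in the labels. Values are log2 expression, so a difference of 1 is a doubling. A gene was called where its adjusted p (limma, Benjamini-Hochberg over the 18166 genes) was under 0.05.

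Some facts of the whole set bear on what follows. The labels do not say whether the 3 arrays of a group came from separate cultures, and a p-value here covers array-to-array spread, which may be technical. Values of number 1 were set apart from those of 2 and 3, and same-numbered arrays deviated together. Many differences are therefore also given between arrays of the same number and, where it matters, from a fit with the number as a block. Background was set at 5.34, a level that 95% of olfactory and vomeronasal receptor genes did not exceed. Nr0b2, which encodes SHP, lay between 4.59 and 5.12 on all 12 arrays. It was under background in the siSHP_IFNg_GW arrays and in the others alike, so it does not check the SHP siRNA label. The astrocyte genes Gfap and Slc1a3 were at 11.72 to 12.06 and 10.89 to 11.71, while all 15 measured microglia markers were also over background, with array medians of 8.51 to 9.47. Expression cannot be assigned to astrocytes alone, and in such bulk samples fewer cells of a type and less RNA per cell cannot be told apart.

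The stretches of 250 bases just upstream of the transcript start are printed for Mt1, Mt2A, Mt3 and Slc30a1, because these genes differed in their values. Whether MTF1 acts on Mt3 was not tested. Sequences are those of RefSeq, assembly GRCr8, where all 6 genes were matched. They read 5′ to 3′ on the gene's strand, and capitals mark each match to the core of the metal response element, searched as TGCACNC and TGCGCNC on both strands. The stretches lie at chr19:10832976-10833225, minus strand; chr19:10838709-10838958, minus strand; chr19:10856081-10856330, minus strand; and chr13:106021769-106022018, plus strand.
Mt1: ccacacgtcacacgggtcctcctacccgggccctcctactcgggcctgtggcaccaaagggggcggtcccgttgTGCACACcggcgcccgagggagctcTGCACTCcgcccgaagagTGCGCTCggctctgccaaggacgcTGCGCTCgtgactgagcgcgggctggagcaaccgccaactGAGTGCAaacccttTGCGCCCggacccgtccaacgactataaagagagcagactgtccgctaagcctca
Mt2A: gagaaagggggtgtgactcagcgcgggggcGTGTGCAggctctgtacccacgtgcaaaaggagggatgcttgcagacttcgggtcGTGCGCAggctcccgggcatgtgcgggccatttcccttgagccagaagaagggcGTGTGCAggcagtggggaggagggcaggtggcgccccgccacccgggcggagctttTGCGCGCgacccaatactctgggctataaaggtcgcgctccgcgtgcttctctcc
Mt3: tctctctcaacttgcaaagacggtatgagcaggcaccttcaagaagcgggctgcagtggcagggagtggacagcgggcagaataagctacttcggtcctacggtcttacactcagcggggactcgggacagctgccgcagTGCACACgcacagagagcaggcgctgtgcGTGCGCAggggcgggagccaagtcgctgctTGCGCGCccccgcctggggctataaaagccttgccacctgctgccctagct
Slc30a1: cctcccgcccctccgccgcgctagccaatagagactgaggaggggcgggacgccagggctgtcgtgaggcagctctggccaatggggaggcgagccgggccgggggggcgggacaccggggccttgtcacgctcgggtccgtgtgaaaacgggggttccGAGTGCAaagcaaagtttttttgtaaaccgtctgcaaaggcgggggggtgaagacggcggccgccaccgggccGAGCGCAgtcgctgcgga

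Upstream of Mt1 there were 6 matches, 5 on the gene's strand and 1 on the other. Mt2A had 4, Mt3 had 3, Slc30a1 and Mtf1 had 2 each, and Mt1f had 0. The Mtf1 stretch (142346804 to 142347053 on chromosome 5, plus strand) runs past the gene start at 142347024. No matches overlapped within these stretches. Of 27457 upstream stretches of the same length in the assembly, 21.2% held at least 1 match, 5.13% at least 2, 1.25% at least 3, 0.277% at least 4 and 0.0219% at least 6. A match describes letters and is not a shown binding site, and the map of matches by distance gives their places.

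**Figure D1:**
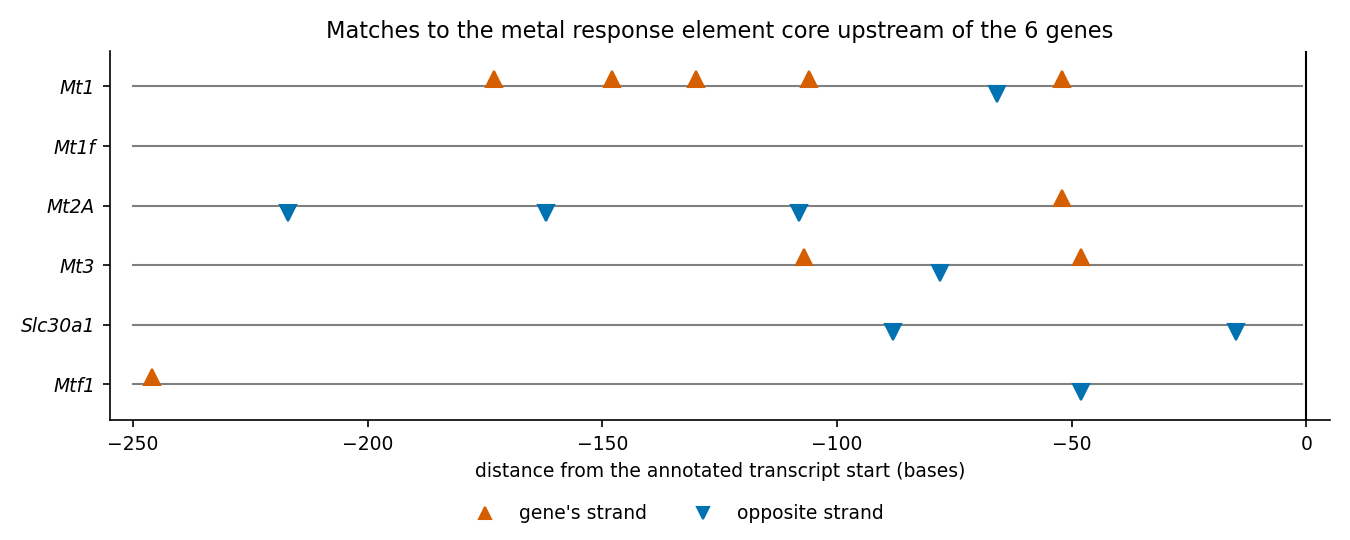
Places of matches to the metal response element core in the 250 bases upstream of each gene, by distance from the annotated transcript start in bases; triangles pointing up are on the gene's strand and those pointing down on the opposite strand. Mt1 has 6 matches, with its nearest centred 52 bases upstream, and Mt1f has 0. The Mtf1 stretch runs past the annotated start of the gene.

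Mt1, Mt2A and Mt3 lie side by side on chromosome 19 in GRCr8, at 10831959 to 10832975, 10837934 to 10838708 and 10854676 to 10856080. Slc30a1 is on chromosome 13 (106022019 to 106025892) and Mtf1 on chromosome 5 (142347024 to 142391810). Mt1f is placed on chromosome X, at 37806740 to 37814784, apart from the cluster.

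Mt1, a metal-inducible metallothionein gene, was higher in every array with GW than in any array without it. Its level was 12.70, 12.66 and 12.58 in siSHP_IFNg_GW arrays 1, 2 and 3 and 12.91, 12.72 and 12.58 in siCon_IFNg_GW, against 11.65, 11.79 and 11.66 in siCon_IFNg and 11.90, 11.88 and 11.89 in siCon. Group means were 12.65 ± 0.06, 12.74 ± 0.17, 11.70 ± 0.07 and 11.89 ± 0.01 in that order (SD, n = 3 each). Between siCon_IFNg_GW and siCon_IFNg, Mt1 rose 2.05-fold, by 1.04 ± 0.10 (SE; limma adjusted p = 0.0024). Differences between arrays of the same number were 1.26, 0.94 and 0.92. Pair 1 was thus over a doubling, and pairs 2 and 3 were a little under one.

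Mt1f, a metallothionein gene of the Mt1 type by name, had the same order of groups. Its level was 11.64, 11.69 and 11.54 in siSHP_IFNg_GW and 12.04, 11.68 and 11.57 in siCon_IFNg_GW, against 10.32, 10.78 and 10.28 in siCon_IFNg and 10.61, 10.53 and 10.71 in siCon. The arrays with GW and those without did not overlap. Mt1f rose 2.47-fold in siCon_IFNg_GW against siCon_IFNg, by 1.30 ± 0.15 (SE; limma adjusted p = 0.0077), with 1.72, 0.90 and 1.29 in pairs 1, 2 and 3. Over the 12 arrays the Mt1f and Mt1 rows correlated with r = 0.99, given as a description, since both share arrays and groups. Metallothionein genes and their pseudogenes are close copies, and the probe sequences were not used here, so the Mt1f row cannot be told apart from signal of Mt1 transcripts.

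**Figure D2:**
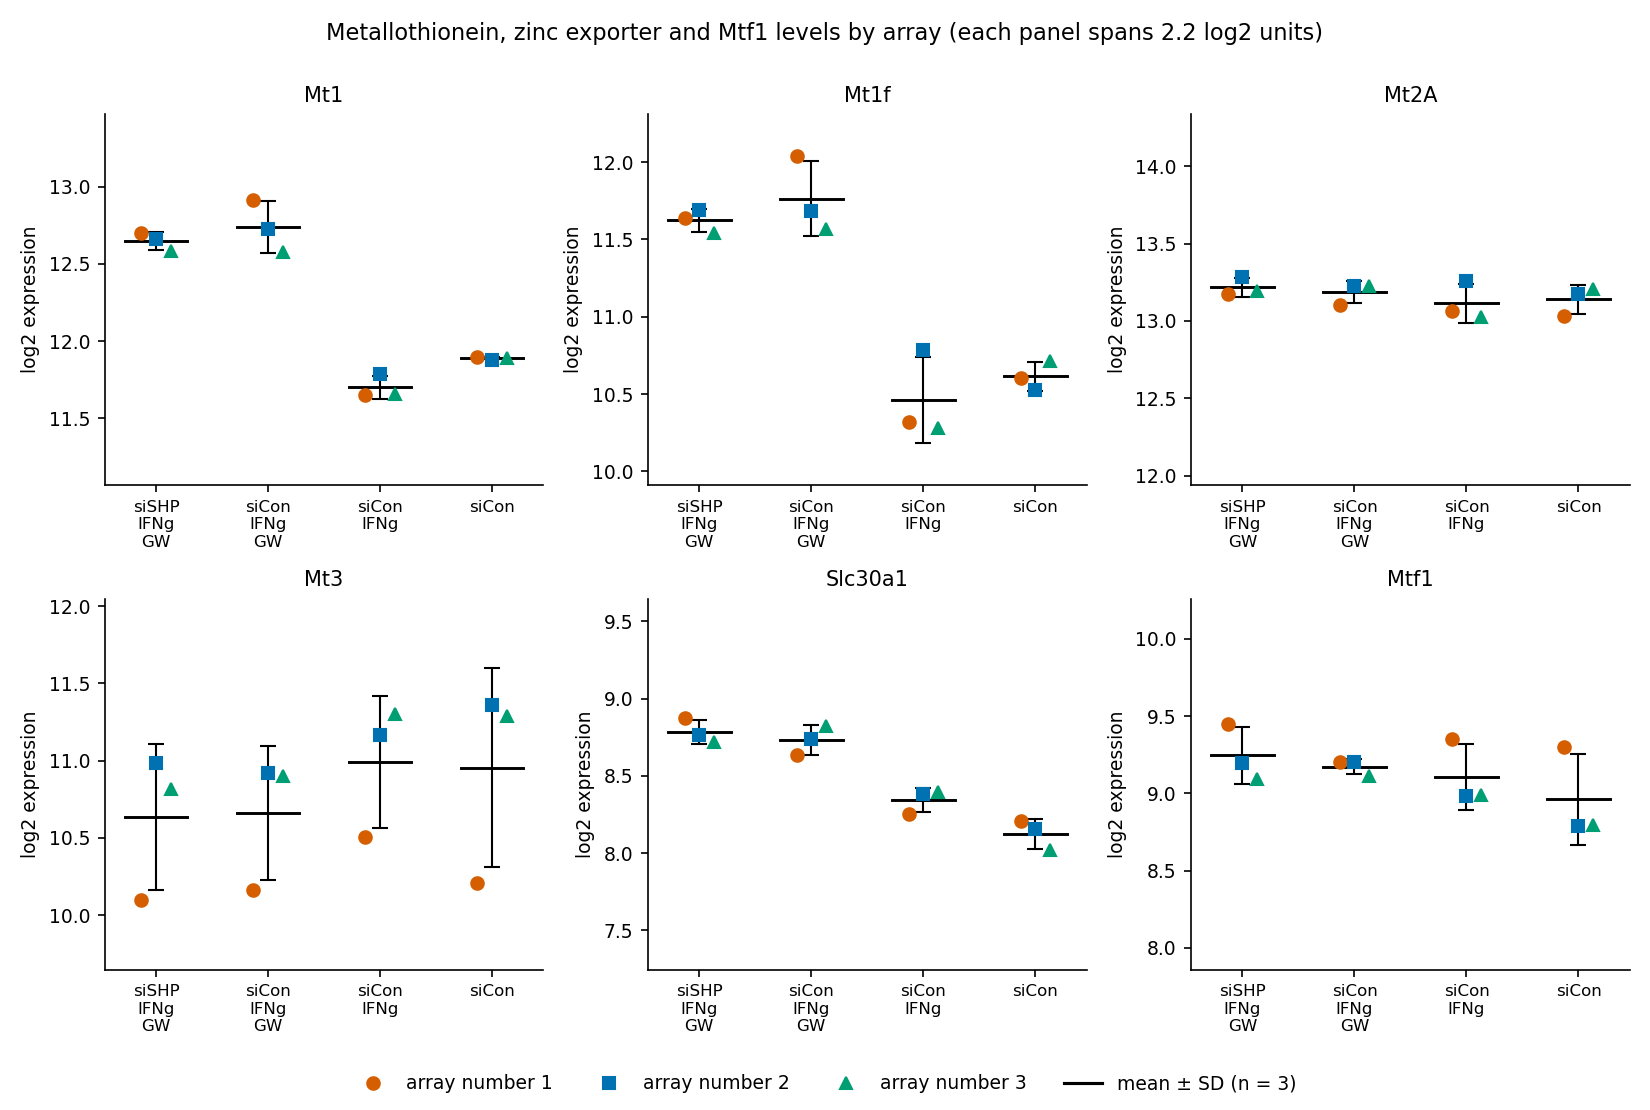
Log2 expression (y axis) of the 6 genes in the 4 groups (x axis), with a point for each array, marked by its number, and a bar for the mean with its SD (n = 3). Mt1 and Mt1f are higher in the 6 arrays with GW than in the 6 without, Slc30a1 likewise by less, Mt2A stays between 13.02 and 13.29, and Mt3 is lowest in number 1 of every group.

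Mt2A, which encodes another widely expressed, metal-inducible metallothionein, did not pass in any of the 5 comparisons. It stood at 13.17, 13.29 and 13.19 in siSHP_IFNg_GW and at 13.10, 13.23 and 13.23 in siCon_IFNg_GW, against 13.06, 13.26 and 13.02 in siCon_IFNg and 13.03, 13.18 and 13.21 in siCon. All 4 groups overlapped. The difference of siCon_IFNg_GW from siCon_IFNg was 0.07, with a 95% interval of -0.14 to 0.28 (limma adjusted p = 0.88). On this row the interval leaves out a measured difference of the size seen for Mt1. The Mt2A levels lie close to the top of the scale, as the highest value of any row was 13.43. Whether that limited the differences was not tested.

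Mt1 and Mt2A each had a second row paired with the gene, and the 2 rows did not give the same picture. The other row of Mt1 read 8.74, 9.86 and 9.96 in siSHP_IFNg_GW and 9.15, 9.86 and 9.89 in siCon_IFNg_GW, against 7.16, 8.71 and 8.11 in siCon_IFNg and 7.62, 8.54 and 8.64 in siCon. Its number 1 was the lowest array in every group. With all rows tested, the difference of siCon_IFNg_GW from siCon_IFNg there was 1.64 ± 0.44 (SE; limma adjusted p = 0.15, or 6.0e-04 with the number as a block). The other row of Mt2A read 11.60, 11.82 and 11.78 in siSHP_IFNg_GW and 11.77, 11.80 and 11.75 in siCon_IFNg_GW, against 11.32, 11.77 and 11.39 in siCon_IFNg and 11.40, 11.56 and 11.65 in siCon. Its difference, 0.28 ± 0.13 (SE), also missed the threshold (limma adjusted p = 0.43; 0.13 with the block). On either row the estimate for Mt1 was thus above that for Mt2A, by amounts that no test compared.

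**Figure D3:**
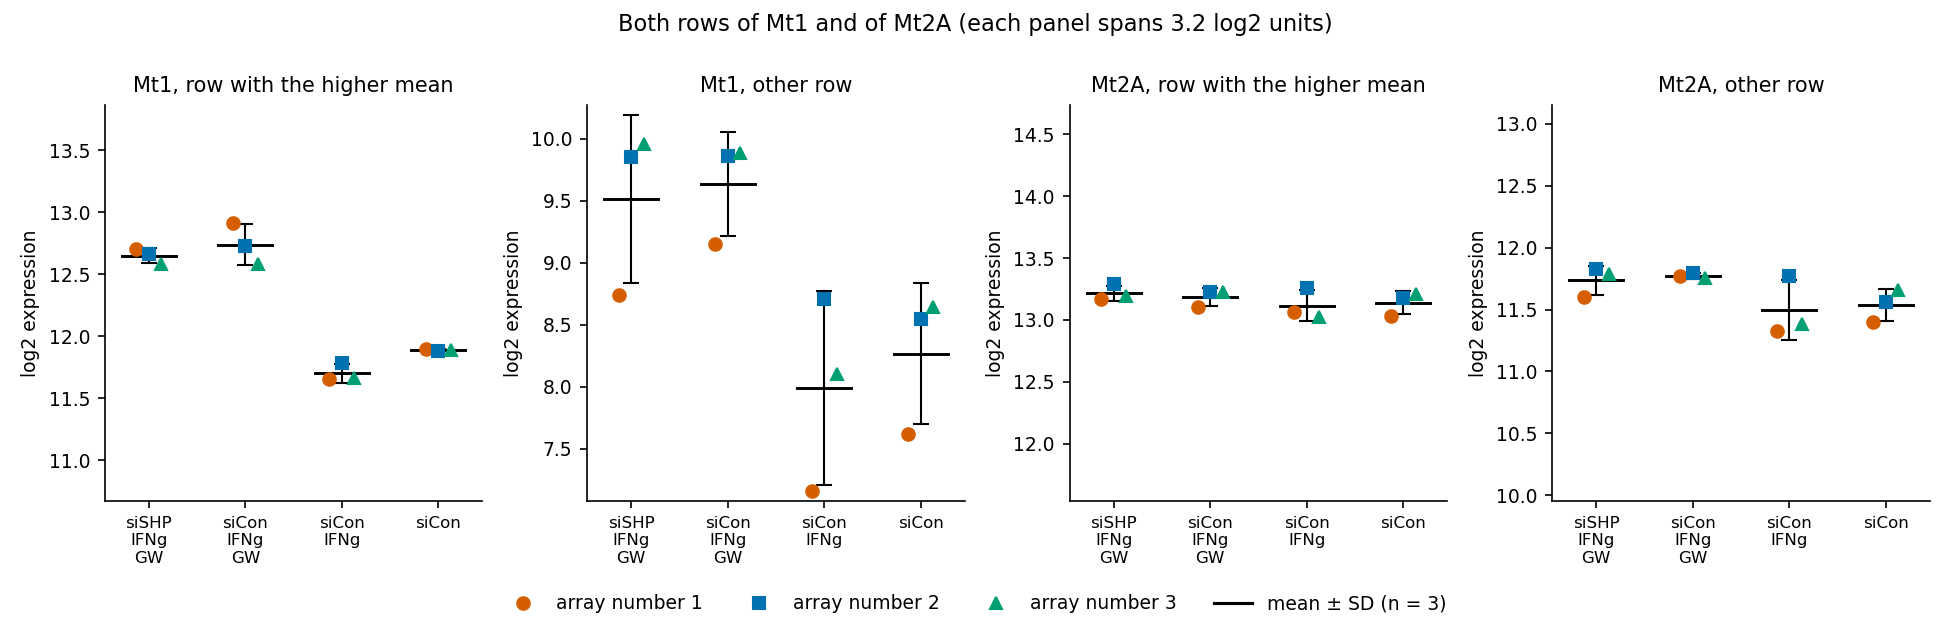
Log2 expression (y axis) on both rows of Mt1 and both rows of Mt2A in the 4 groups (x axis), with points for arrays by number and bars for the mean and SD (n = 3). Both Mt1 rows are higher with GW, by 1.04 and 1.64 against siCon_IFNg, and the Mt2A rows by 0.07 and 0.28.

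Mt3, which differs from Mt1 and Mt2 in being largely confined to the nervous system, showed no increase with GW. It was at 10.10, 10.99 and 10.82 in siSHP_IFNg_GW and 10.16, 10.92 and 10.90 in siCon_IFNg_GW, against 10.50, 11.17 and 11.30 in siCon_IFNg and 10.21, 11.36 and 11.29 in siCon. Number 1 was the lowest array of each group, 0.81, 0.75, 0.73 and 1.11 under the mean of numbers 2 and 3 in that order of groups. Within numbers, siCon_IFNg_GW minus siCon_IFNg was -0.34, -0.25 and -0.40. All 3 were below 0, as for 20.8% of all genes, but the mean difference of -0.33 ± 0.36 (SE) did not pass (limma adjusted p = 0.85; 0.084 with the block). Against siCon, Mt3 had -0.29 in siCon_IFNg_GW and missed the threshold (adjusted p = 0.87), while without the arrays numbered 1, a fit that called 5.66% of all genes, it fell by 0.41 (limma adjusted p = 0.042). The median of the 10 meningeal and vascular markers (7 of them over background) was also lowest in number 1 of each group, for example 7.71 in siCon number 1 against 9.03 and 9.08 in numbers 2 and 3. The neuron median was likewise lowest in number 1 of each group, for example 5.81 in siCon number 1 against 6.14 and 6.15. That of 12 oligodendrocyte markers was highest in number 1 of siSHP_IFNg_GW (6.53 against 6.19 and 6.41) and lowest there in the other groups. The microglia median was highest in number 1 of siCon_IFNg (9.25 against 9.14 and 9.14) and of siCon (9.47 against 9.31 and 9.23). In the groups with GW it was lowest in number 1. The astrocyte median was highest in number 1 of siSHP_IFNg_GW (10.86 against 10.83 and 10.68) and lowest in number 1 of the other groups. The part of these in the Mt3 values was not tested. The 14 neuron markers, 10 of them over background, had array medians of 5.72 to 6.31 across the 12 arrays, and 0 of the 14 were called in any of the 5 comparisons by limma, with or without the block (1 to 3 at an unadjusted p under 0.05).

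Slc30a1 rose in siCon_IFNg_GW when set against siCon. The exporter gene was at 8.87, 8.76 and 8.72 in siSHP_IFNg_GW and at 8.63, 8.74 and 8.82 in siCon_IFNg_GW, against 8.25, 8.38 and 8.40 in siCon_IFNg and 8.21, 8.15 and 8.02 in siCon. Means were 8.79 ± 0.08, 8.73 ± 0.09, 8.34 ± 0.08 and 8.13 ± 0.10 (SD, n = 3 each). The first 2 of these do not differ beyond their spread, and both lie above the siCon_IFNg arrays without overlap. The rise over siCon was 1.52-fold, 0.61 ± 0.09 (SE; limma adjusted p = 0.016), with 0.43, 0.59 and 0.80 in pairs 1, 2 and 3. Over siCon_IFNg the difference was 0.39 ± 0.09 (adjusted p = 0.096), and it passed with the block (adjusted p = 0.035), with even pairs of 0.38, 0.36 and 0.43.

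Interferon-γ alone left Slc30a1 0.22 ± 0.09 above siCon (SE; unadjusted p = 0.039; limma adjusted p = 0.85). The pairs were 0.05, 0.23 and 0.38. All siCon_IFNg arrays lay above all siCon arrays, as 3.59% of genes did in that direction.

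Mtf1, the gene of the metal sensor itself, did not pass in any comparison over the 12 arrays. It read 9.45, 9.20 and 9.09 in siSHP_IFNg_GW and 9.20, 9.20 and 9.12 in siCon_IFNg_GW, against 9.35, 8.98 and 8.99 in siCon_IFNg and 9.30, 8.79 and 8.80 in siCon. The groups overlapped, with number 1 highest in each. Between siCon_IFNg_GW and siCon_IFNg the difference was 0.06, with a 95% interval of -0.29 to 0.41 (limma adjusted p = 0.94). Pairs 1, 2 and 3 had -0.15, 0.22 and 0.13, on both sides of 0. Without number 1, Mtf1 was higher in siCon_IFNg_GW than in siCon by 0.36 (limma adjusted p = 0.040). Pair 1 had -0.10 there, and pairs 2 and 3 had 0.41 and 0.32.

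Interferon-γ alone moved none of the 6 genes past the threshold, against 0.121% of all genes called (22 of 18166; 0.936% with the block, where again 0 of the 6 passed by limma). At an unadjusted p under 0.05 there was 1 of the 6, Slc30a1. The median over the 6 was 0.01, against -0.03 for all genes. Mt1 was 0.19 ± 0.10 lower in siCon_IFNg than in siCon (SE; limma adjusted p = 0.96), with -0.24, -0.09 and -0.23 in the 3 pairs. Its arrays did not overlap, as for 9.3% of all genes in either direction. The 95% interval of that difference, -0.40 to 0.02, includes 0.

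With GW added to interferon-γ, of the 6 genes 2 were higher, Mt1 and Mt1f, and 0 lower, where 0.886% of all genes were called (161; 115 higher and 46 lower). With the block Slc30a1 made 3, beside 6.55% of all genes. The arrays did not overlap for 3 of the 6, all higher with GW, against 15.3% of all genes in either direction. The same 3 were higher in every pair, as were 20.0% of all genes. The median over the 6 was 0.23, against 0.00 for all genes. In all counts over the 6, Mt1f stands as a gene of its own, although its row cannot be told apart from Mt1 signal.

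**Figure D4:**
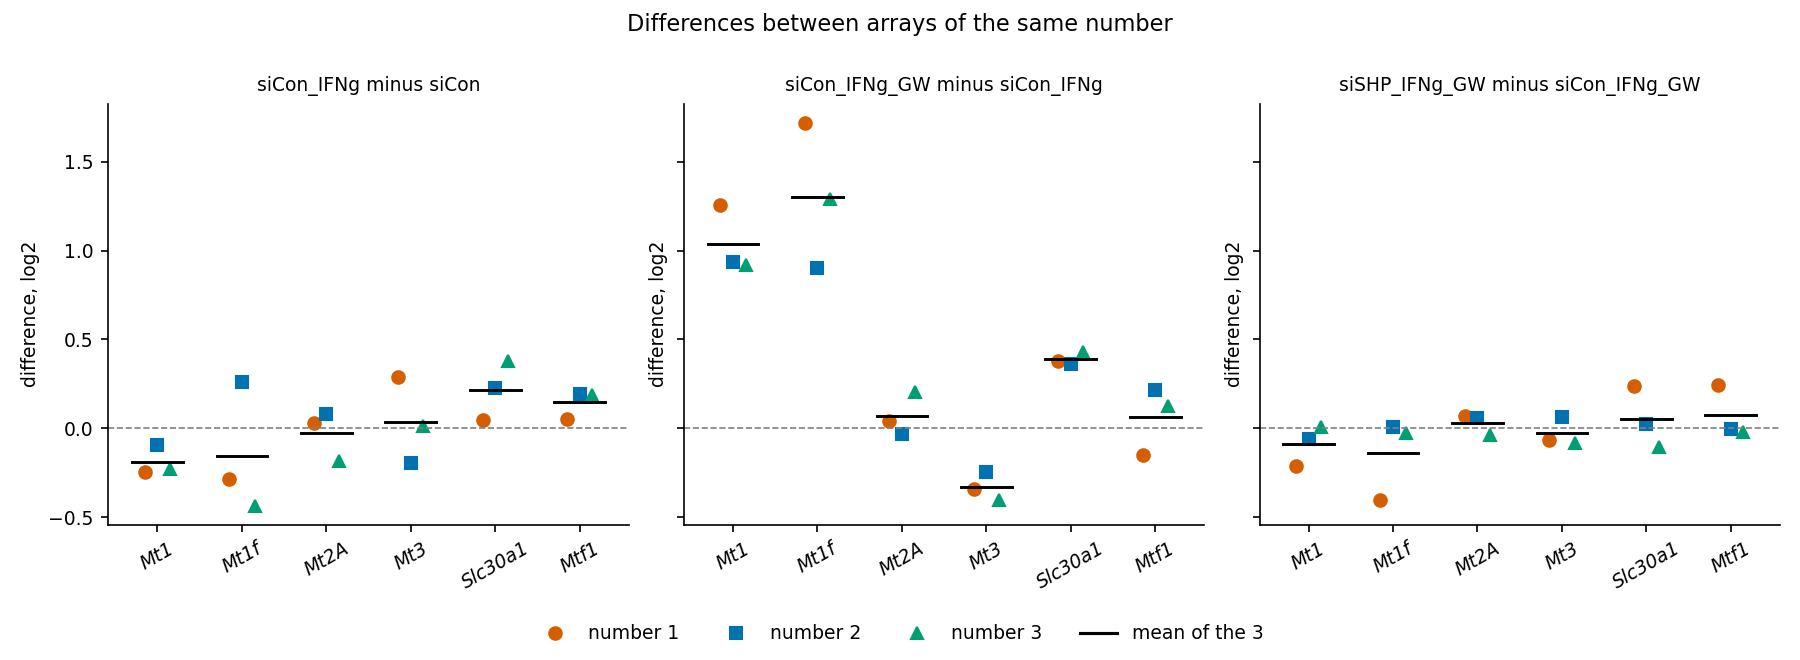
Differences in log2 expression (y axis) between arrays of the same number for the 6 genes (x axis) in 3 comparisons, with points for numbers 1 to 3 and a bar for their mean. With GW all points of Mt1, Mt1f and Slc30a1 lie above 0 and those of Mt3 below, and with SHP siRNA the means lie between -0.14 and 0.07.

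Set against untreated siCon, siCon_IFNg_GW had Mt1 higher by 0.85 ± 0.10 (1.80-fold; SE; limma adjusted p = 0.0043), Mt1f by 1.15 ± 0.15 (adjusted p = 0.0088) and Slc30a1 as given above. These 3 of 6 stand beside 0.864% of all genes called, and with the block the same 3 passed beside 6.84%. The same 3 had arrays without overlap, against 18.2% of all genes. This comparison shares the siCon_IFNg_GW arrays with the one before it, so the 2 are not independent.

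SHP siRNA against control siRNA, both with interferon-γ and GW, moved none of the 6. By limma 0 of 18166 genes were called, 0.0% (0 also with the block), and 416 had an unadjusted p under 0.05, none of them among the 6. All 6 genes had overlapping arrays, while 6.47% of all genes did not. Mt1 differed by -0.09, with a 95% interval of -0.30 to 0.12, and Mt1f by -0.14 (-0.48 to 0.20). Slc30a1 differed by 0.05 (-0.15 to 0.26), Mt2A by 0.03 (-0.18 to 0.24), Mtf1 by 0.07 (-0.28 to 0.42) and Mt3 by -0.03 (-0.82 to 0.77). The intervals for Mt1 and Mt1f leave out a loss as large as the rise with GW. The one for Mt3, from the fit without the block, is too wide to do so for most changes. Within pairs Mt3 differed by -0.07, 0.07 and -0.08, and its SE with the block was 0.10, against 0.36 without it. The pairs of Mt1 were -0.21, -0.06 and 0.01.

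The siSHP_IFNg_GW arrays also stood above siCon_IFNg for Mt1, by 0.95 ± 0.10 (1.93-fold; SE; limma adjusted p = 0.0069), and for Mt1f, by 1.16 ± 0.15 (adjusted p = 0.020). Those 2 of 6 stand beside 0.303% of all genes called. Slc30a1 differed there by 0.44 ± 0.09 (adjusted p = 0.092) and passed with the block (adjusted p = 0.034), beside 3.08% of all genes. Together these 3 had arrays without overlap, against 14.1% of all genes. The siCon_IFNg arrays serve this comparison and that of GW with control siRNA alike, so the likeness of their values is partly shared.

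The calls of Mt1, Mt1f and Slc30a1 did not hold for every choice of arrays. Without all arrays numbered 2 or all numbered 3, the rise of Mt1 in siCon_IFNg_GW over siCon_IFNg was 1.09 or 1.10 with limma adjusted p = 0.72 or 0.31, and that of Mt1f 1.50 or 1.31 with adjusted p = 0.55 or 0.50, in fits that called 0 genes in all. Without number 1, where 11.5% of all genes were called, Mt1 had 0.93 (limma adjusted p = 5.0e-04) and Mt1f 1.10 (adjusted p = 0.0041). Slc30a1 passed there too, with 0.39 (adjusted p = 0.021). In siSHP_IFNg_GW against siCon_IFNg it had 0.35 without number 1 (adjusted p = 0.047), beside 6.21% of all genes called. With the arrays of the 2 compared groups alone in the fit, 4 genes were called in siCon_IFNg_GW against siCon_IFNg. Mt1 then had adjusted p = 0.098 and Mt1f 0.13. That setting ended all 7 calls among the 6 genes: in siCon_IFNg_GW against siCon, Mt1 had adjusted p = 0.062, Mt1f 0.057 and Slc30a1 0.097, and in siSHP_IFNg_GW against siCon_IFNg, Mt1 had 0.060 and Mt1f 0.12. For siSHP_IFNg_GW against siCon_IFNg the Mt1 call was lost without siCon_IFNg replicate 3 (adjusted p = 0.052) or siSHP_IFNg_GW replicate 3 (0.065). That of Mt1f was lost without siCon_IFNg replicate 3 (0.13), siSHP_IFNg_GW replicate 2 (0.14) or 3 (0.11). In siCon_IFNg_GW against siCon, Mt1f missed the threshold without siCon replicate 2 (0.068). Slc30a1 missed it there without siCon replicate 2 (0.091) or 3 (0.074) or siCon_IFNg_GW replicate 2 (0.084) or 3 (0.061). In these last 2 comparisons, leaving out all arrays numbered 2 or all numbered 3 ended each call among the 6 genes (adjusted p of 0.24 to 1.00).

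Most microglia markers had lower values with GW. Of the 15 measured of 16, all over background, 13 were lower in siCon_IFNg_GW than in siCon_IFNg, with a median difference of -0.44. Their array medians were 8.51 to 8.86 in siCon_IFNg_GW and 9.14 to 9.25 in siCon_IFNg; 0 were called over the 12 arrays by limma (8 at an unadjusted p under 0.05) and 9 were lower with the block, as were 2.91% of all genes. In siCon_IFNg_GW against siCon all 15 were lower, with a median difference of -0.55. Their array medians in siCon were 9.23 to 9.47. There 1 of the 15 was called, Tyrobp, a microglial signalling adaptor, which fell by 0.92 ± 0.17 (SE; limma adjusted p = 0.038), and 13 were lower with the block, as were 3.9% of all genes. In siSHP_IFNg_GW against siCon_IFNg 13 of the 15 were lower (median -0.36), 0 were called by limma (3 at an unadjusted p under 0.05) and 2 were lower with the block, as were 1.13% of all genes. The 11 measured astrocyte markers of 14 had array medians of 10.41 to 10.83 in siCon_IFNg_GW and 10.77 to 11.01 in siCon_IFNg, with a median difference of -0.07. The part of either in the metallothionein values was not tested.

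Differences of other zinc transporter genes lay on both sides of 0. Beside it 9 further exporter genes of the Slc30 family and 13 importer genes of the Slc39 family were measured, 22 in all, of which 8 and 12 were over background (Slc39a10 was not analysed here). In siCon_IFNg_GW against siCon_IFNg 0 of the 22 were called over the 12 arrays by limma (0.886% of all genes; 1 exporter and 1 importer gene at an unadjusted p under 0.05), 11 differences were positive and 11 negative, and the median was -0.00. They ran from -0.42 for Slc30a7 to 0.42 for Slc30a10. With the block 2 fell, and 0 rose. One was Slc30a7, a Golgi zinc transporter, with -0.42 ± 0.14 (SE; adjusted p = 0.25; 0.015 with the block) and pairs of -0.46, -0.43 and -0.38. The other was Slc39a8, an importer of zinc and manganese, with -0.35 ± 0.23 (adjusted p = 0.66; 0.047 with the block). Slc30a7 read 8.36, 8.80 and 8.73 in siCon_IFNg_GW, against 8.82, 9.23 and 9.11 in siCon_IFNg, and these arrays did not overlap.

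**Figure D5:**
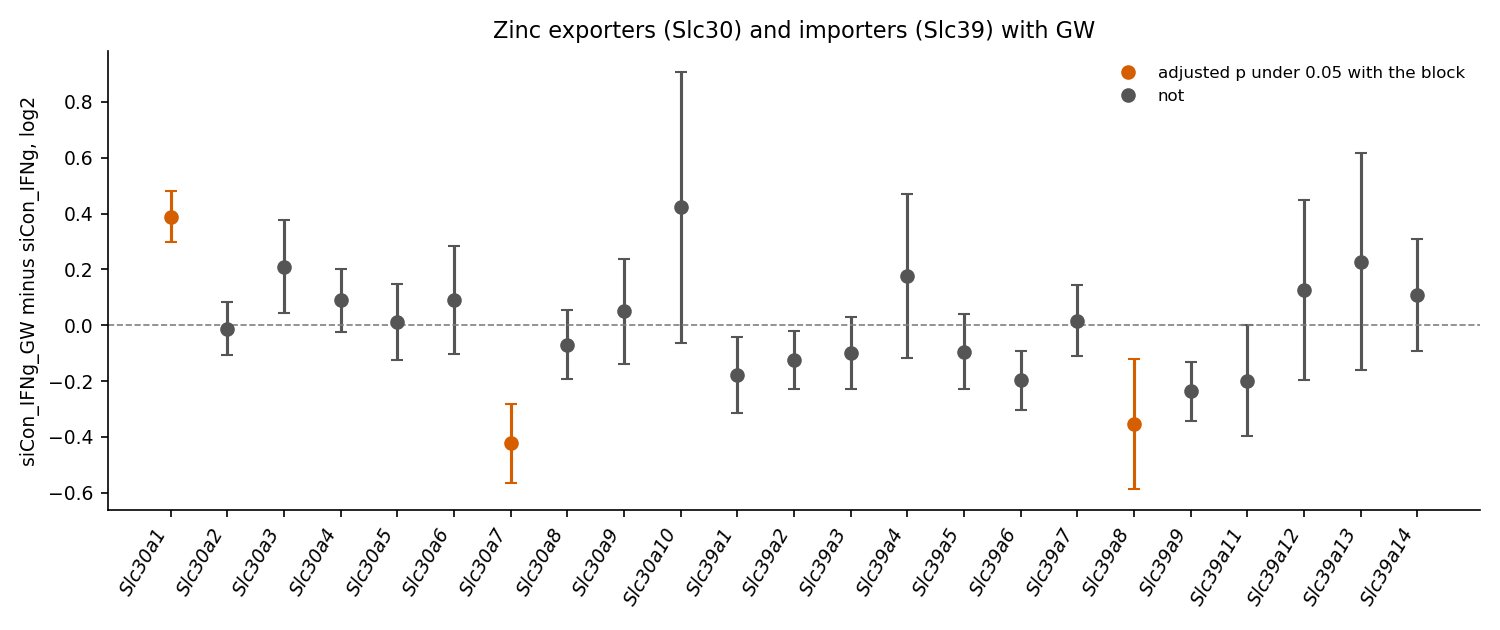
Difference in log2 expression of siCon_IFNg_GW from siCon_IFNg (y axis) for the exporter and importer genes measured (x axis), as points with the SE of the fit over 12 arrays; orange points passed with the array number as a block. Slc30a1 is at 0.39, Slc30a7 at -0.42 and Slc39a8 at -0.35.

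Slc30a10, a manganese exporter, had 0.42 ± 0.49 (SE) and uneven pairs of 0.10, 0.35 and 0.82. The importer Slc39a14 differed by 0.11, the astrocyte-rich Slc39a12 by 0.13 and Slc39a1 by -0.18, and each missed the threshold with and without the block. Against siCon, Slc39a14 was 0.61 ± 0.20 higher in siCon_IFNg_GW (SE; limma adjusted p = 0.23; 0.029 with the block). It read 8.19, 7.98 and 7.77 in siCon_IFNg_GW, against 7.47, 7.28 and 7.34 in siCon. In siSHP_IFNg_GW against siCon_IFNg, Slc30a7 had -0.38 (adjusted p = 0.42; 0.034 with the block). With SHP siRNA against control siRNA 0 of the 22 passed by limma, with or without the block, and 0 had an unadjusted p under 0.05. Mt4, the remaining metallothionein gene with a row, lay at 5.75 to 6.25 on all 12 arrays and did not pass in any comparison.

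Genes of other metals and of other lists are given for siCon_IFNg_GW against siCon_IFNg, where 0.886% of all genes were called and 6.55% with the block. Of 14 measured copper genes 12 had negative differences (median -0.15), and the metalloreductase gene Steap2 fell by 0.99 ± 0.16 (SE; limma adjusted p = 0.020), at 5.71, 6.02 and 5.79 in siCon_IFNg_GW against 6.51, 7.06 and 6.91 in siCon_IFNg. With the block Steap4 fell too, by 0.78 (adjusted p = 0.012). Interferon-γ alone had left Steap4 0.84 higher than in siCon (adjusted p = 0.94; 0.023 with the block). Of 12 measured iron genes 0 were called over the 12 arrays by limma, with 3 at an unadjusted p under 0.05. With the block the heme oxygenase gene Hmox1 rose by 0.98 (adjusted p = 0.012), and the iron exporter Slc40a1 fell by 0.77 (adjusted p = 0.025) and the mitochondrial iron carrier Slc25a28 by 0.42 (adjusted p = 0.046). Hmox1 read 11.65, 11.07 and 10.93 in siCon_IFNg_GW, against 10.46, 10.23 and 10.02 in siCon_IFNg.

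Among 8 measured genes otherwise linked to MTF1, only Gclc, of glutathione synthesis, rose over the 12 arrays with GW, at 0.68 ± 0.13 (SE; limma adjusted p = 0.047). Plekhf1 rose as well with the block, by 0.68 (adjusted p = 0.046), and the median over the 8 was 0.13. Of 12 measured glucocorticoid-induced genes 1 rose (beside 0.886% of all genes called), Errfi1, a feedback inhibitor of the EGF receptor, by 1.45 ± 0.18 (SE; adjusted p = 0.0077). Per1 (2.09, adjusted p = 1.4e-04), Dusp1 (3.51, adjusted p = 0.0040) and Pdk4 (0.70, adjusted p = 0.047) joined it with the block, making 4 of 12 beside 6.55% of all genes. Tsc22d3 and Fkbp5, which respond to glucocorticoids in most cells, had 0.18 and 0.03 (adjusted p = 0.31 and 0.92 with the block). Of 11 measured STAT3-linked acute-phase genes 0 were called over the 12 arrays by limma, with 4 at an unadjusted p under 0.05. With the block Junb rose by 1.90 (adjusted p = 0.0087) and Timp1 fell by 0.49 (adjusted p = 0.043). These lists were chosen with earlier results known.

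Over the 12 arrays the levels of Slc30a1 correlated with those of Mt1 (r = 0.85, also 0.85 after the mean of each number was removed). Mt2A had r = 0.43 with Mt1, or 0.62 within numbers. Levels of Mt3 ran opposite to those of Mt1 (r = -0.42, or -0.86 within numbers). Mtf1 and Mt3 ran opposite (r = -0.86; -0.70 within numbers). Among 12433 genes over background, the rows most like Mt1 were Mt1f (r = 0.99), Gpatch8 (0.98), Bach2 (0.97), Fnip1 (0.97) and Tsc22d2 (0.97). For Mt1f they were Mt1, Gpatch8 (0.98), Bach2 (0.96), Setd2 (0.95) and Stk36 (0.95). The pattern of Slc30a1 was shared most by Ccn1 (0.94), Mafk (0.94), Nrip1 (0.94), Phip (0.93) and Jun (0.93). For Mt3 the nearest were Smoc1, Spp1, Pebp1, Moxd1 and Glt8d2 (0.98 each), with 0.88 to 0.91 within numbers. Mtf1 was nearest to Elac1 (0.96) and Spopl (0.92), G3bp1 (0.92), Tent4a (0.92) and Slc25a38 (0.92). Mt2A was nearest to Fam227a, Rsrp1 and Cpsf6 (0.93 each) and Rbm26 and Paxbp1 (0.92 each). Such r describe 12 points that share groups and array numbers.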

How the data were processed

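Biotin-labelled cDNA made from total RNA of the 12 samples was hybridised to whole-transcript arrays, per the labels' protocols. The authors deposited 1 log2 value per row and array (36685 rows, 1.01 to 13.43); the log base was inferred from this range, and their background correction and normalization are not given in the sources used here. The series text says that 4 arrays come from an earlier series, without naming them. Of the rows, 18511 were paired with 1 gene by the platform annotation, and the row with the highest mean was kept for each of 18166 genes. Arrays carry no read depth; their number limits precision.

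Groups and numbers came from the titles. The 4 group means were fitted over all 12 arrays with limma 3.58.1 (R 4.3.3), using lmFit and eBayes, and p-values were adjusted over all genes. The fit was also run on simulated data as a check of its estimates. No recovery of changes was required there of the fit without the block. That run therefore does not show how many true changes the calls miss. The members and lists were chosen with earlier results of these data known; genes outside the members were named where they passed with or without the block (at most 6 per list), with 8 further genes in any case. Deviations from group means correlated by 0.63 to 0.77, 0.48 to 0.58 and 0.43 to 0.55 between arrays numbered 1, 2 and 3, and the arrays were therefore treated as paired by number in the block fit only. Plots used matplotlib 3.10.9 (Python 3.11.15).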

Additional observations from a re-analysis of the deposited data

How the results depend on the processing

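The count of genes called moved with the block and with the arrays used. With the replicate block it was 170 for siCon_IFNg against siCon (22 over the 12 arrays without it), 1189 for siCon_IFNg_GW against siCon_IFNg (161), 1242 for siCon_IFNg_GW against siCon (157) and 559 for siSHP_IFNg_GW against siCon_IFNg (55). With only the compared groups in the fit the counts were 7, 4, 32 and 6 in the same order. Centring array medians gave 79, 79 and 30 for the last 3, and testing only genes over background gave 96 for the last. Leaving out arrays singly or by number gave 0 to 856, 0 to 2081, 0 to 1028 and 0 to 1129 in that order, and 0 to 267 for siSHP_IFNg_GW against siCon_IFNg_GW (0).

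The block changed 2 calls among the 6 genes, both of Slc30a1 and given above, and no other. Quantile normalization turned the sign of Mt2A in siCon_IFNg against siCon (0.0264) and brought its difference between siSHP_IFNg_GW and siCon_IFNg_GW to 0.00. Leaving out arrays turned the sign of some uncalled differences. Mt2A ran from -0.10 to 0.0552 in siCon_IFNg against siCon, from -0.0103 to 0.0644 in siSHP_IFNg_GW against siCon_IFNg_GW and from -0.0064 to 0.0875 in siCon_IFNg_GW against siCon. Mt3 ran from -0.33 to 0.28 and from -0.28 to 0.24 in the first 2 of these, and Slc30a1 from -0.0388 to 0.13 in the second. Mtf1 ran from -0.0271 to 0.15 in the second and from -0.0117 to 0.19 in siCon_IFNg_GW against siCon_IFNg. The cause was not tested. Background correction could not be varied on summarised values and was not run.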
